A study of Mus musculus with 12 samples.

Results

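The 10 genes described here, of 54232 in the count table, were chosen by their measured RNA levels, which differed between the first and the second library of a genotype in the same direction before and after lipopolysaccharide (LPS). They are C1qa, C1qb, Clec4n, Cd207, Ms4a7, Gpr34, Htr1b, Cxcl14, Tent5c and Ighm, and all 10 passed the filter on low counts that left 12771 genes for testing. The RNA came from RAW264.7 cells, a mouse macrophage line derived from a tumour induced by Abelson leukaemia virus. The groups were LPS-treated Socs1-/-, untreated Socs1-/-, LPS-treated Ing4-/-, untreated Ing4-/-, LPS-treated wild type (WT) and untreated WT cells, with 2 libraries each. Socs1 encodes a suppressor of cytokine signalling and Ing4 a chromatin-binding regulator of transcription. LPS, a bacterial outer membrane glycolipid that macrophages sense through Toll-like receptor 4, was given at 100 ng/ml for 3 h. The libraries numbered 1 and 2 by the labels are called the first and the second library below. Neither library is a treatment or a control, and the labels do not say whether they came from separate cultures, clones or preparations. Whether each knockout is 1 clone is not stated, so that an effect of the deletion and of the clone cannot be told apart.

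Macrophages take on different programs in different tissues, and several of these genes mark such programs. C1qa and C1qb encode chains of C1q, the complement protein that recognises antibody-coated surfaces and dying cells and is made largely by tissue macrophages. Clec4n encodes Dectin-2, a lectin that binds fungal mannans, and Cd207 encodes langerin, the lectin of Langerhans cells in the skin. Ms4a7 encodes a multi-pass membrane protein found in resident macrophages, Gpr34 a lysophosphatidylserine receptor abundant in microglia, and Htr1b an inhibitory serotonin receptor. Cxcl14 encodes a chemokine made without inflammation in many epithelia, Tent5c a cytoplasmic poly(A) polymerase that stabilises mRNAs of secreted proteins, and Ighm the constant region of the immunoglobulin M heavy chain.

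The libraries held between 17250815 and 24377950 counts, so that 3 counts corresponded to 0.122 to 0.169 CPM (counts scaled to a common library size, with TMM factors). The first LPS-treated Socs1-/- library lay at -12.3 on the first principal component, whereas the other LPS-treated libraries lay between 44.3 and 55.3 and the untreated libraries between -47.0 and -32.1. In that library Tnf stood at 1381 CPM and Ifit1 at 13.6 CPM, against 10530 and 1686 CPM in the second. The counts of calls after LPS are also given without it. All 17 macrophage identity markers were detected, among them Lyz2 at 6612 CPM or more and Csf1r at 721 CPM or more in every library. The knockout labels could not be checked from the targeted genes' RNA: Ing4 was at or below 1.39 CPM in every library and Socs1 was still measured at 2.73 and 7.14 CPM in LPS-treated Socs1-/- libraries. As separate cultures are not documented, the spread behind every p-value is that between these libraries and may be technical.

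Across the 10 genes, differences between the libraries of a genotype reached 401-fold and were not limited to 1 genotype. A difference was counted where the first library was at least 2-fold above or below the second, on log2(CPM + 0.5), in the same direction after LPS and untreated. By this count 9 of the 10 differed in Socs1-/- cells, 4 of them higher in the first library and 5 in the second, against 3.82% of all tested genes. In Ing4-/- cells 6 differed, 1 higher in the first library and 5 in the second, against 2.00% of all genes. In WT cells 7 differed, all higher in the first library, against 0.963% of all genes. Of the 10 genes 8 passed in 2 genotypes and 2, C1qb and Ighm, in all 3. These counts describe how the genes were chosen and are no test. In the untreated pairs alone, which leave out the LPS-treated library that stood apart, the counts were again 9, 6 and 7 genes, against 5.93%, 4.0% and 2.32% of all genes.

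Several of the genes stood at the edge of all 12771 tested genes when ranked by the smaller of the 2 differences. Gpr34 ranked 1 in Socs1-/- cells, Ms4a7, Cd207 and Clec4n ranked 1, 2 and 3 in Ing4-/- cells, and Htr1b, Cxcl14 and Tent5c ranked 1, 2 and 3 in WT cells. The nearest of the counted values to the 2-fold limit, 1 on the log2 scale, were C1qb in Socs1-/- cells with -1.05 and Clec4n in Socs1-/- cells with -1.16. Just outside it were Cd207 in WT cells with 0.77 and Clec4n in WT cells with -0.67. At such low levels the 0.5 CPM added before the log shrinks the differences, so the counts depend on it. On CPM alone Cd207 in WT cells was 3.81-fold after LPS and 2.34-fold untreated higher in the first library. C1qb in Socs1-/- cells was 15.2-fold and 7.75-fold higher in the second, from 1 and 4 counts in the first. Over all tested genes, the first-minus-second differences of LPS-treated and untreated cells correlated across genes at r = 0.556 in Socs1-/-, 0.653 in Ing4-/- and 0.508 in WT cells, and at 0.551, 0.642 and 0.498 with the 10 genes left out.

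**Figure D1:**
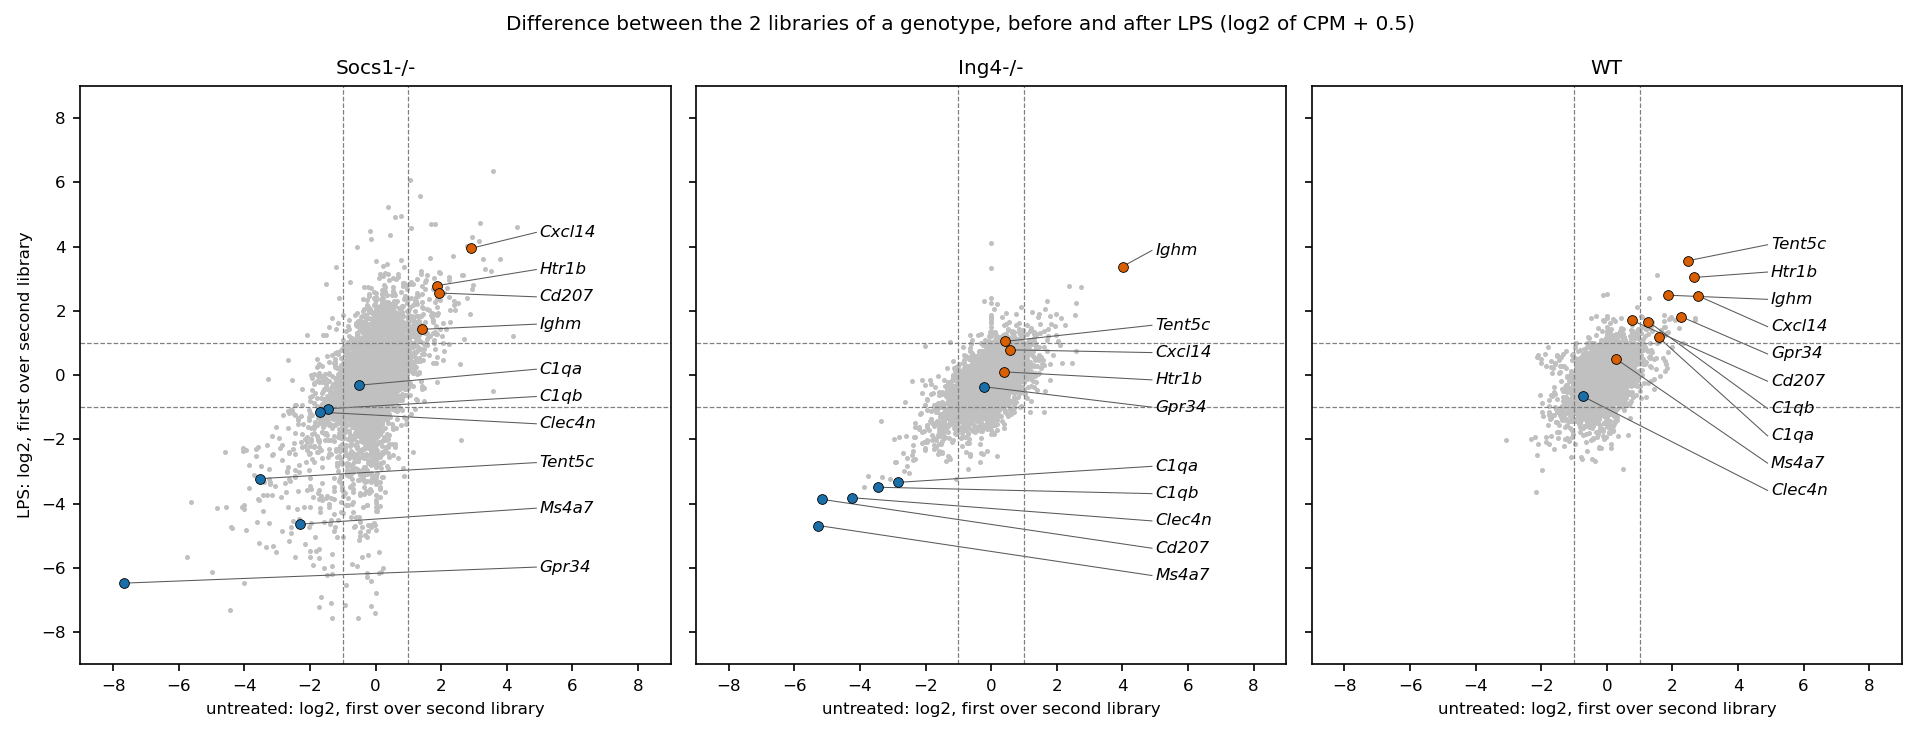
Each point is 1 of 12771 tested genes, with the log2 difference of the first over the second library in untreated cells on the x axis and in LPS-treated cells on the y axis, for Socs1-/-, Ing4-/- and WT cells. The 10 genes are outlined and named, orange where the LPS-treated first library was higher and blue where the second was, and dashed lines mark a 2-fold difference; Gpr34 lies at the lower left in Socs1-/- cells, Ms4a7 and Cd207 in Ing4-/- cells, and Htr1b, Cxcl14 and Tent5c at the upper right in WT cells.

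The C1q chains were high in the second Ing4-/- libraries and, at a lower level, in the first WT libraries. C1qb (ENSMUSG00000036905, chromosome 4, 136880129 to 136886187, minus strand, mouse build GRCm38) had 0.0408 CPM in the first and 0.619 CPM in the second LPS-treated Socs1-/- library, and 0.173 and 1.34 CPM in the untreated ones. In Ing4-/- cells it had 0.380 and 9.41 CPM after LPS and 0.436 and 9.73 CPM untreated, so that the second library was 24.8-fold and 22.3-fold above the first. In WT cells the order was turned round, with 2.69 and 0.507 CPM after LPS and 2.99 and 0.951 CPM untreated. C1qa (ENSMUSG00000036887, chromosome 4, 136895917 to 136898803, minus strand) followed the same pattern. It had 0.0815 and 0.225 CPM after LPS and 0.304 and 0.647 CPM untreated in Socs1-/- cells, and 0.0951 and 5.54 CPM after LPS and 0.392 and 5.95 CPM untreated in Ing4-/- cells. WT cells had 0.860 and 0.101 CPM after LPS and 1.80 and 0.272 CPM untreated. The Socs1-/- and the lower libraries held only 2 to 13 C1qa counts, so the ratios there are loose. The second LPS-treated Ing4-/- library, with 100 counts against 2, was 58.2-fold above the first, with an exact binomial 95% interval of 15.7 to 488 that covers counting error only.

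C1qc, the third chain, lies between C1qb and C1qa and moved with them. It had 0.951 and 12.3 CPM in LPS-treated and 0.523 and 13.3 CPM in untreated Ing4-/- libraries, and 2.79 and 0.457 CPM in LPS-treated and 1.98 and 0.136 CPM in untreated WT libraries. In Socs1-/- cells it had 1 and 14 counts after LPS and 1 and 25 counts untreated. Over the 12 libraries log2 CPM of the 3 chains correlated at r = 0.958 (C1qa and C1qb), 0.952 (C1qb and C1qc) and 0.929 (C1qa and C1qc), given as a description, since the libraries share genotypes and treatments. The next tested genes on either side of the cluster, Kdm1a and Zbtb40, did not differ at least 2-fold in both treatments in any genotype.

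The reference promoters of C1qb and C1qc, from RefSeq on GRCm38.p6, are shown because the chains moved together, as the 250 bases before the annotated start on the minus strand. They lie at chr4:136886201-136886450 for C1qb and chr4:136892915-136893164 for C1qc. Capitals mark matches, on either strand, to the PU.1-type motif GAGGAAGT, the ETS core AGGAAG that it contains, the composite GGAANNGAA, the interferon-response core GAAANNGAA, the AP-1 motif TGANTCA or the E-box TCACGTG.
C1qb: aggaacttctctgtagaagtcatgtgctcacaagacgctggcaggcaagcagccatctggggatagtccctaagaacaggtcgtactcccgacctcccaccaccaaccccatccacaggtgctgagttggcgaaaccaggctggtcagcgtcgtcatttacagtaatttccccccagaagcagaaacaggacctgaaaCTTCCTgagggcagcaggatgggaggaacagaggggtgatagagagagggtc
C1qc: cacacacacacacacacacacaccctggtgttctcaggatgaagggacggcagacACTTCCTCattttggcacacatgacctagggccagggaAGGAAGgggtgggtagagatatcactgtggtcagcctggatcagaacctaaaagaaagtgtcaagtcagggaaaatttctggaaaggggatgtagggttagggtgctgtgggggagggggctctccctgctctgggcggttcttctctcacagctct
C1qb held 1 match to AGGAAG, found in 29.5% of all 32851 reference promoters. C1qc held 2, 1 of them within the single match to GAGGAAGT, found in 2.44% of promoters. The other motifs had no match in these windows. The sequences describe the reference, not the cells, and a match is no evidence of binding.

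The lectin genes differed most in Ing4-/- cells. Cd207 (ENSMUSG00000034783, chromosome 6, 83671215 to 83677857, minus strand) had 9.37 and 1.18 CPM in LPS-treated and 4.99 and 0.946 CPM in untreated Socs1-/- libraries. In Ing4-/- cells it had 9.03 and 139 CPM after LPS and 1.18 and 59.5 CPM untreated, so that the second library was 15.4-fold and 50.5-fold above the first. WT libraries had 7.74 and 2.03 CPM after LPS and 1.27 and 0.543 CPM untreated. The first library was thus the higher one in Socs1-/- and WT cells and the lower one in Ing4-/- cells. Clec4n (ENSMUSG00000023349, chromosome 6, 123229843 to 123247021, plus strand) was the 1 gene of the 10 that was higher in the second library in all 6 groups. It had 4.44 and 10.5 CPM after LPS and 3.69 and 12.9 CPM untreated in Socs1-/- cells, 0.951 and 20.0 CPM after LPS and 0.654 and 21.3 CPM untreated in Ing4-/- cells, and 3.01 and 5.07 CPM after LPS and 2.37 and 4.26 CPM untreated in WT cells. The gap was 21.0-fold and 32.6-fold in Ing4-/- cells and 1.69-fold and 1.80-fold in WT cells. Its neighbour Clec4a2, another lectin of the Dectin-2 cluster, had 9.93 and 39.2 CPM in LPS-treated and 8.02 and 43.6 CPM in untreated Ing4-/- libraries.

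Cd207 is best known from Langerhans cells, but other markers of those cells were scarce. Of 10 Langerhans and dendritic cell markers 5 passed the filter, and Epcam, Cdh1 and Flt3 had 0 counts in all 12 libraries. Their summed level was 2.42 and 3.54 CPM in LPS-treated and 1.00 and 1.29 CPM in untreated Ing4-/- libraries, and the highest sum, 29.6 CPM, was in the second LPS-treated Socs1-/- library, where Cd207 stood at 1.18 CPM. In bulk RNA, fewer cells of a kind and less RNA per cell cannot be told apart.
The reference promoter of Cd207 is shown beside these values, on the minus strand at chr6:83677858-83678107, with the same marking.
Cd207: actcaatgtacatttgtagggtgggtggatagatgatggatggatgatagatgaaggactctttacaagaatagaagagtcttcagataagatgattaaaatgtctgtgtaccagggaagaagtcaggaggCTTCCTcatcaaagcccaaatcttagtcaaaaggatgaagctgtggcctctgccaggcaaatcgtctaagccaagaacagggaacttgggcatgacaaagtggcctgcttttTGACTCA
It held 1 match to AGGAAG and 1 to TGANTCA, a motif found in 6.75% of reference promoters.

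Ms4a7, which ranked 1 of all tested genes between the Ing4-/- libraries, also differed between the Socs1-/- libraries. The gene (ENSMUSG00000024672, chromosome 19, 11321039 to 11336146, minus strand) had 0.122 and 15.1 CPM in LPS-treated and 0.390 and 3.93 CPM in untreated Socs1-/- libraries. With 3 and 268 counts the LPS-treated second library was 123-fold above the first, with an exact binomial 95% interval of 41.7 to 601, and this ratio rests on the library that stood apart; untreated it was 10.1-fold above. In Ing4-/- cells Ms4a7 had 1.95 and 62.5 CPM after LPS and 0.611 and 42.5 CPM untreated, ratios of 32.1 and 69.5. WT libraries lay close together, with 3.71 and 2.49 CPM after LPS and 1.05 and 0.770 CPM untreated. The nearest tested genes on either side, Ms4a14 and Ms4a4a, were also higher in the second Ing4-/- library, from 1 count in the first after LPS, with 0.0475 and 2.88 CPM after LPS for Ms4a14 and 0.0475 and 0.775 CPM for Ms4a4a.

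The second Ing4-/- libraries, in which C1qa, C1qb, Cd207, Clec4n and Ms4a7 were all high, differed from the first in other measures too. The share of mitochondrial transcripts was 0.749% in the first and 2.09% in the second LPS-treated library, 0.556% and 2.11% in the untreated ones, and between 0.548% and 1.08% in all Socs1-/- and WT libraries. The summed level of the 17 macrophage markers was 17251 and 25865 CPM after LPS and 15958 and 26133 CPM untreated in the first and second Ing4-/- libraries, against 14054 to 16792 CPM in the Socs1-/- and WT libraries. Lyz2 was the largest single part of these sums, at 6612 to 17000 CPM over the 12 libraries with a median of 8608 CPM. The sums therefore do not show that the 17 markers rose together. The part of the mitochondrial and marker differences in the values of the 5 genes was not tested.

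The receptor genes had the widest ranges over the 12 libraries, 884-fold from the lowest to the highest for Htr1b and 871-fold for Gpr34. Gpr34 (ENSMUSG00000040229, chromosome X, 13632089 to 13640858, plus strand) was nearly undetected in the first Socs1-/- libraries, with 8 counts (0.326 CPM) after LPS and 12 counts (0.520 CPM) untreated, and stood at 73.2 CPM after LPS and 208 CPM untreated in the second. The second library was thus 225-fold and 401-fold above the first. In Ing4-/- cells the libraries lay close together, with 171 and 220 CPM after LPS and 244 and 284 CPM untreated. WT libraries had 59.1 and 16.4 CPM after LPS and 66.2 and 13.3 CPM untreated, with the first library higher. Cask overlaps Gpr34 on the opposite strand and stood at 60.1 and 51.3 CPM in the first LPS-treated and untreated Socs1-/- libraries. No source states whether counting used strand, so reads of Cask within Gpr34 cannot be told apart from its own, but the Gpr34 counts of 8 and 12 set their limit in those libraries.

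Htr1b was higher in the first library in all 6 groups, and it was nearly undetected in Ing4-/- cells. The gene (ENSMUSG00000049511, chromosome 9, 81628291 to 81633828, minus strand) had 30.9 and 4.05 CPM in LPS-treated and 48.9 and 12.9 CPM in untreated Socs1-/- libraries. Ing4-/- libraries had 2 and 1 counts after LPS and 9 and 4 counts untreated. WT libraries had 17.8 and 1.72 CPM after LPS and 43.9 and 6.48 CPM untreated, so that the first was 10.3-fold and 6.78-fold above the second. D430036J16Rik overlaps Htr1b on the opposite strand with 4 to 137 counts per library. Cxcl14 (ENSMUSG00000021508, chromosome 13, 56288643 to 56296551, minus strand) was likewise higher in the first library in all 6 groups. It had 57.3 and 3.26 CPM after LPS and 64.3 and 8.21 CPM untreated in Socs1-/- cells, 6.08 and 3.32 CPM after LPS and 7.50 and 4.89 CPM untreated in Ing4-/- cells, and 22.5 and 3.65 CPM after LPS and 21.6 and 2.72 CPM untreated in WT cells. The second libraries of all 6 groups lay between 2.72 and 8.21 CPM, and the first libraries between 6.08 and 64.3 CPM.

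The reference promoters of Htr1b, at chr9:81633833-81634082, and Cxcl14, at chr13:56296552-56296801, both on the minus strand, are shown because these genes shared the same order of libraries in every group.
Htr1b: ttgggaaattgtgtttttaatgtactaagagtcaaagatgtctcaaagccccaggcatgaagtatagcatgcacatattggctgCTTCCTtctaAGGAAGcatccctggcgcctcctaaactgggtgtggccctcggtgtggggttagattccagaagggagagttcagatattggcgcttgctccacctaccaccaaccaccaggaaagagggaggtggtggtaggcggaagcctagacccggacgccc
Cxcl14: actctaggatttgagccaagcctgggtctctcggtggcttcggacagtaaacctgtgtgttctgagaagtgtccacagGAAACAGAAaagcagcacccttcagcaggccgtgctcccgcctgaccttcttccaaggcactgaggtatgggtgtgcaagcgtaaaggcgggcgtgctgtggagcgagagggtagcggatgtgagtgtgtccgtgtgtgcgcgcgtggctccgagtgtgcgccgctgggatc
Htr1b held 2 matches to AGGAAG and Cxcl14 held 1 to GAAANNGAA, found in 7.13% of reference promoters. No motif was matched in both. Of the 10 genes 6 had an entry in the promoter table, and GGAANNGAA and TCACGTG, found in 6.99% and 3.13% of all promoters, were matched in none of them.

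Tent5c was low or high in opposite libraries of Socs1-/- and WT cells. The gene (ENSMUSG00000044468, chromosome 3, 100451628 to 100489324, minus strand) had 1.55 and 18.7 CPM in LPS-treated and 0.737 and 13.8 CPM in untreated Socs1-/- libraries, 12.1-fold and 18.7-fold higher in the second. Ing4-/- libraries had 2.14 and 0.775 CPM after LPS and 1.05 and 0.645 CPM untreated. WT libraries had 9.56 and 0.355 CPM after LPS and 4.74 and 0.453 CPM untreated, 26.9-fold and 10.5-fold higher in the first. Tent5a, another poly(A) polymerase of the family, shared the direction in Socs1-/- cells, with 4.65 and 61.2 CPM after LPS and 5.42 and 11.5 CPM untreated.

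Ighm was the third gene higher in the first library in all 6 groups, while 10 defining markers of B cells were at or near 0. The gene (ENSMUSG00000076617, chromosome 12, 113418558 to 113422730, minus strand) had 58.8 and 21.6 CPM in LPS-treated and 78.5 and 28.9 CPM in untreated Socs1-/- libraries. Ing4-/- libraries had 24.3 and 1.88 CPM after LPS and 41.6 and 2.12 CPM untreated, 12.9-fold and 19.6-fold higher in the first. WT libraries had 71.9 and 12.4 CPM after LPS and 68.3 and 18.2 CPM untreated. Of these 10 markers 0 passed the filter, Ms4a1, Ebf1, Igkc and Igll1 had 0 counts in all 12 libraries, and the summed level of the list was at most 0.886 CPM. Ighd and Ighj1, the tested neighbours of Ighm, did not differ at least 2-fold in both treatments in any genotype. Cd22, an inhibitory receptor of B cells and 1 of 3 tested genes of the B cell and immunoglobulin list, differed in the direction opposite to Ighm in Socs1-/- cells, with 0.0815 and 1.57 CPM in the first and second library after LPS and 0.0434 and 1.59 CPM untreated.

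**Figure D2:**
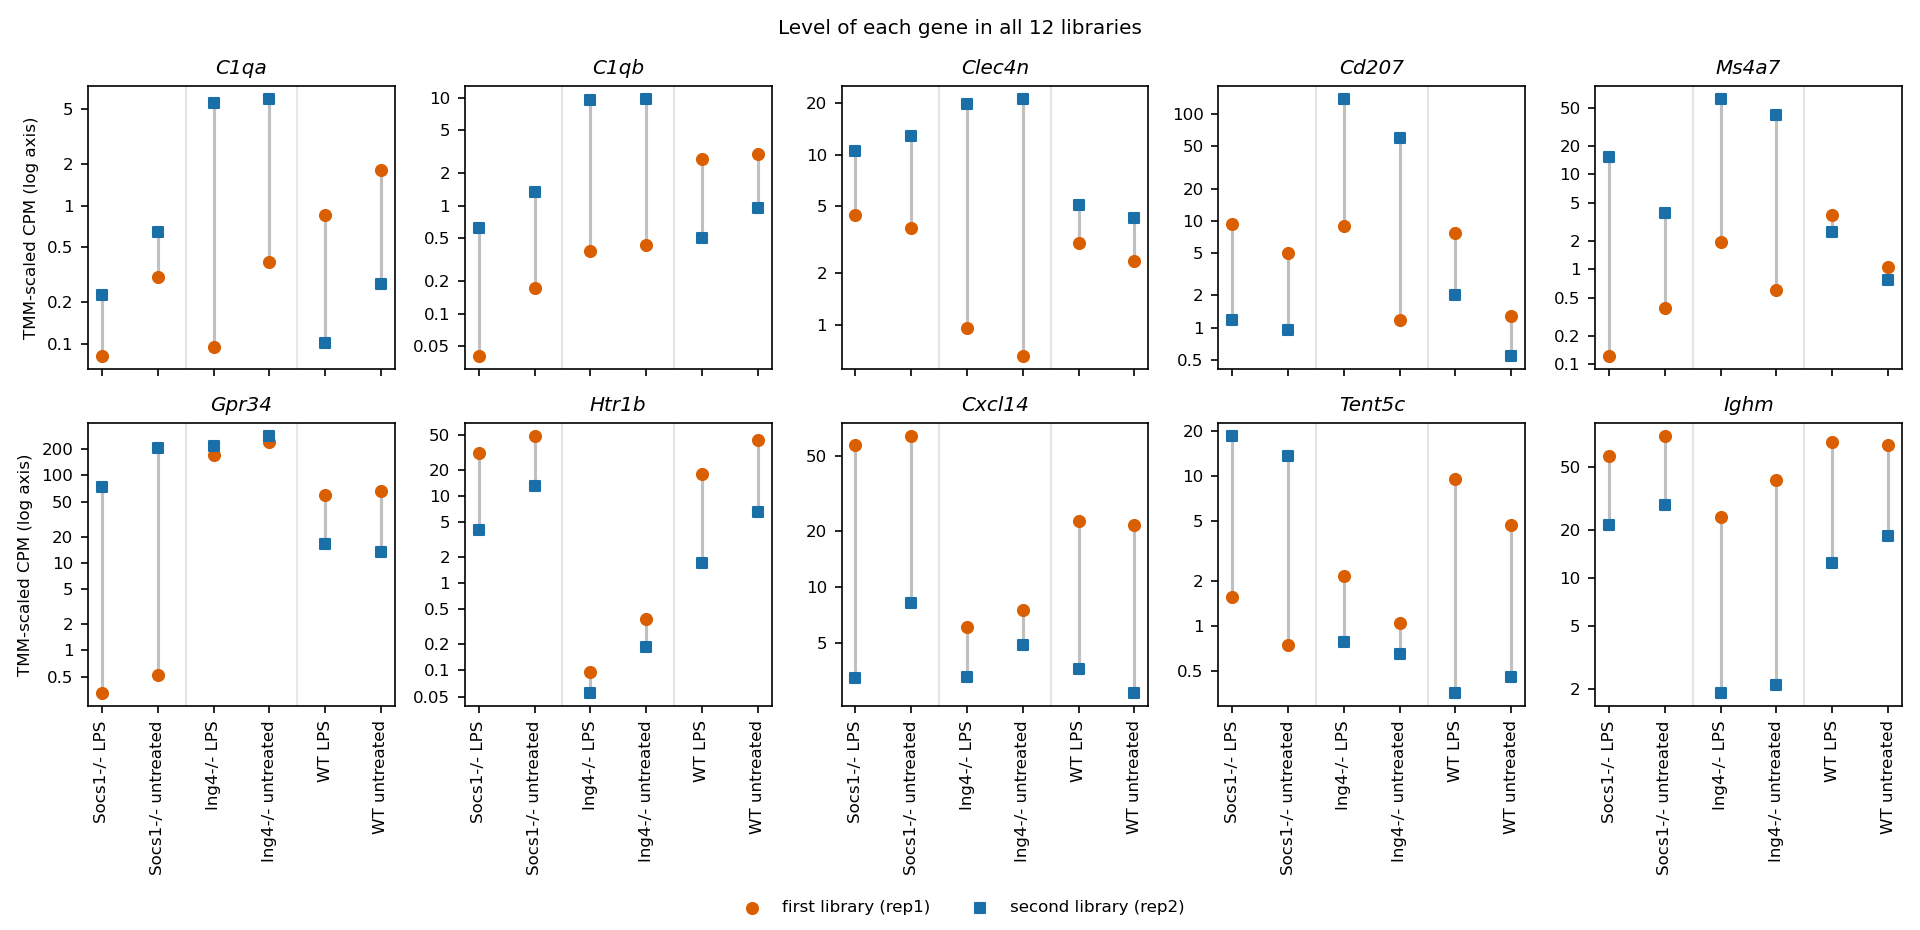
The TMM-scaled CPM of each gene, on a log axis of its own, is plotted for the first (orange circle) and second (blue square) library of each group, with a grey line joining the pair. Htr1b, Cxcl14 and Ighm have the circle on top in all 6 groups and Clec4n the square, Gpr34 spans 0.326 to 284 CPM, and Htr1b is low in both Ing4-/- groups.

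The genes did not form a single pattern across the 12 libraries. The first library was higher in all 6 groups for Htr1b, Cxcl14 and Ighm, in 4 for Cd207 and Tent5c, in 2 for Ms4a7, C1qa, C1qb and Gpr34, and in none for Clec4n. By Pearson's r of log2 CPM, Ighm was lowest where Ms4a7 was highest (r = -0.833), while Ighm and Htr1b (0.757), Htr1b and Cxcl14 (0.750) and Ighm and Cxcl14 (0.710) varied together. For Tent5c, r with the other 9 lay between -0.326 and 0.375. The tested genes most like each by r over the 12 libraries were Clec4a2 for Clec4n (0.921), Tsg101 for Cd207 (0.958), Zfp953 for Ms4a7 (0.936), Akr1c13 for Gpr34 (0.955), Zfp438 for Htr1b (0.983), Prss16 for Cxcl14 (0.883), Slc39a4 for Tent5c (0.898) and Zc3h7b for Ighm (0.947). These were picked as the highest of the 12771 genes after predicted, clone, pseudogene and mitochondrial names were left out, and no test was made. Of the 18 neighbouring genes other than C1qc and the 10 genes themselves, 4 differed at least 2-fold in both treatments in at least 1 genotype. These were Ms4a14, Ms4a4a and Clec4a2 in Ing4-/- cells and Tifab in Socs1-/- cells. The share of all tested genes that passed in at least 1 genotype was not computed, so this count is a description. Within single genotypes the shares were 3.82% in Socs1-/-, 2.00% in Ing4-/- and 0.963% in WT cells.

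For LPS-treated against untreated cells, with the group means alone, the edgeR test, with p-values adjusted over all genes, called 0 of the 10 in Socs1-/-, Ing4-/- and WT cells, against 1.98%, 8.02% and 2.89% of all genes. Of the 30 gene and genotype pairs 0 had an unadjusted edgeR p under 0.05. Over all genes, 2165, 3603 and 2886 had such a p in Socs1-/-, Ing4-/- and WT cells. DESeq2 and limma-voom called 0 of the 30 too. Over all genes DESeq2 called 832, 2157 and 1415 in these genotypes, of 12340, 12804 and 12340 with an adjusted p. By limma-voom 223, 888 and 369 of 12771 genes were called. Without the first LPS-treated Socs1-/- library edgeR again called 0 of the 10 in each genotype, against 15.8%, 20.4% and 14.5% of 13262 genes. The median log2 changes of the 10 were -0.34 in Socs1-/-, -0.12 in Ing4-/- and 0.03 in WT cells, against 0.01, 0.00 and 0.01 for all genes, and their direction rested on single libraries. In Socs1-/- cells the median was -0.77 or -1.56 without the first or second LPS-treated library and -0.01 or 0.45 without the first or second untreated one. For Ing4-/- cells it was 0.34 or -1.65 without the first or second LPS-treated library and -0.47 or 1.65 without the first or second untreated one. In WT cells the values in the same order were -1.77, 0.65, 1.36 and -0.73. The spread that enters this test is the gap between the libraries by which the genes were chosen, so the count of 0 is a description and no independent result. The same-numbered libraries of a genotype deviated together, and a fit that compares LPS-treated with untreated cells within each genotype and library number is therefore given beside it. In that fit edgeR called 1 gene in Socs1-/-, 1 in Ing4-/- and 2 in WT cells, against 6.02%, 27.2% and 14.2% of all genes. The spread in that fit rests on how far the library differences after LPS and untreated disagree. The genes were chosen where these agreed in direction, so these calls are no independent result either.

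Within library numbers Cd207 rose after LPS in Ing4-/- cells (log2 change 1.87, SE 0.395, edgeR adjusted p = 0.0250) and in WT cells (2.34, SE 0.503, edgeR adjusted p = 0.0375), and its log2 change in Socs1-/- cells was 0.73 (edgeR adjusted p = 0.326). It was higher after LPS in all 6 pairs of libraries. Without that pairing its log2 changes were 1.29 (SE 1.69, edgeR adjusted p = 0.673) and 2.41 (SE 1.97, edgeR adjusted p = 0.510). Htr1b fell in WT cells (log2 change -1.55, SE 0.284, edgeR adjusted p = 0.0256) and was lower after LPS in all 6 pairs. Its unpaired log2 change in WT cells was -1.37 (edgeR adjusted p = 0.574), and within library numbers it had -1.11 in Socs1-/- and -1.86 in Ing4-/- cells (edgeR adjusted p = 0.0686 and 0.135). Gpr34 fell in Socs1-/- cells (log2 change -1.38, SE 0.211, edgeR adjusted p = 0.0205), with -1.51 unpaired (edgeR adjusted p = 0.779). That value rests on the second pair, with 73.2 CPM after LPS and 208 CPM untreated, since the first pair held 8 and 12 counts.

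Gpr34 had a log2 change of -0.44 in Ing4-/- cells and 0.06 in WT cells (edgeR adjusted p = 0.0827 and 0.822). The remaining genes gave values that did not pass in the fit within library numbers. Ms4a7 had log2 changes of 1.35 in Socs1-/-, 0.90 in Ing4-/- and 1.75 in WT cells (edgeR adjusted p = 0.229, 0.239 and 0.0979), and was higher after LPS in 5 of 6 pairs. C1qa had -1.62, -0.43 and -1.13, and both C1qa and C1qb were lower after LPS in all 6 pairs, with edgeR adjusted p between 0.136 and 0.854 for the chains. On log2(CPM + 0.5) the falls of C1qb were small in some pairs, between -0.72 and -0.045. The third chain, C1qc, was higher after LPS in 3 pairs and lower in 3. Clec4n, Cxcl14, Tent5c and Ighm had log2 changes between -0.66 and 0.73 in the 3 genotypes. Leaving out the first LPS-treated Socs1-/- library raised the count of calls to 11 of 30 in the same fit, 4 in Socs1-/-, 4 in Ing4-/- and 3 in WT cells, against 29.9%, 42.7% and 36.7% of 13262 genes. Ms4a7 then rose in Socs1-/- (log2 1.94), Ing4-/- (0.79) and WT cells (1.76; edgeR adjusted p = 0.0022, 0.0201 and 0.0024). In that fit Htr1b fell in Socs1-/- (log2 -1.67) and WT cells (-1.50), Gpr34 in Socs1-/- (-1.51) and Ing4-/- cells (-0.44), Cxcl14 in Socs1-/- cells (-1.33) and Ighm in Ing4-/- cells (-0.63). Cd207 rose in Ing4-/- (1.74) and WT cells (2.38) there too. The Socs1-/- value then comes from the second pair of libraries alone, with a spread borrowed from the other groups.

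**Figure D3:**
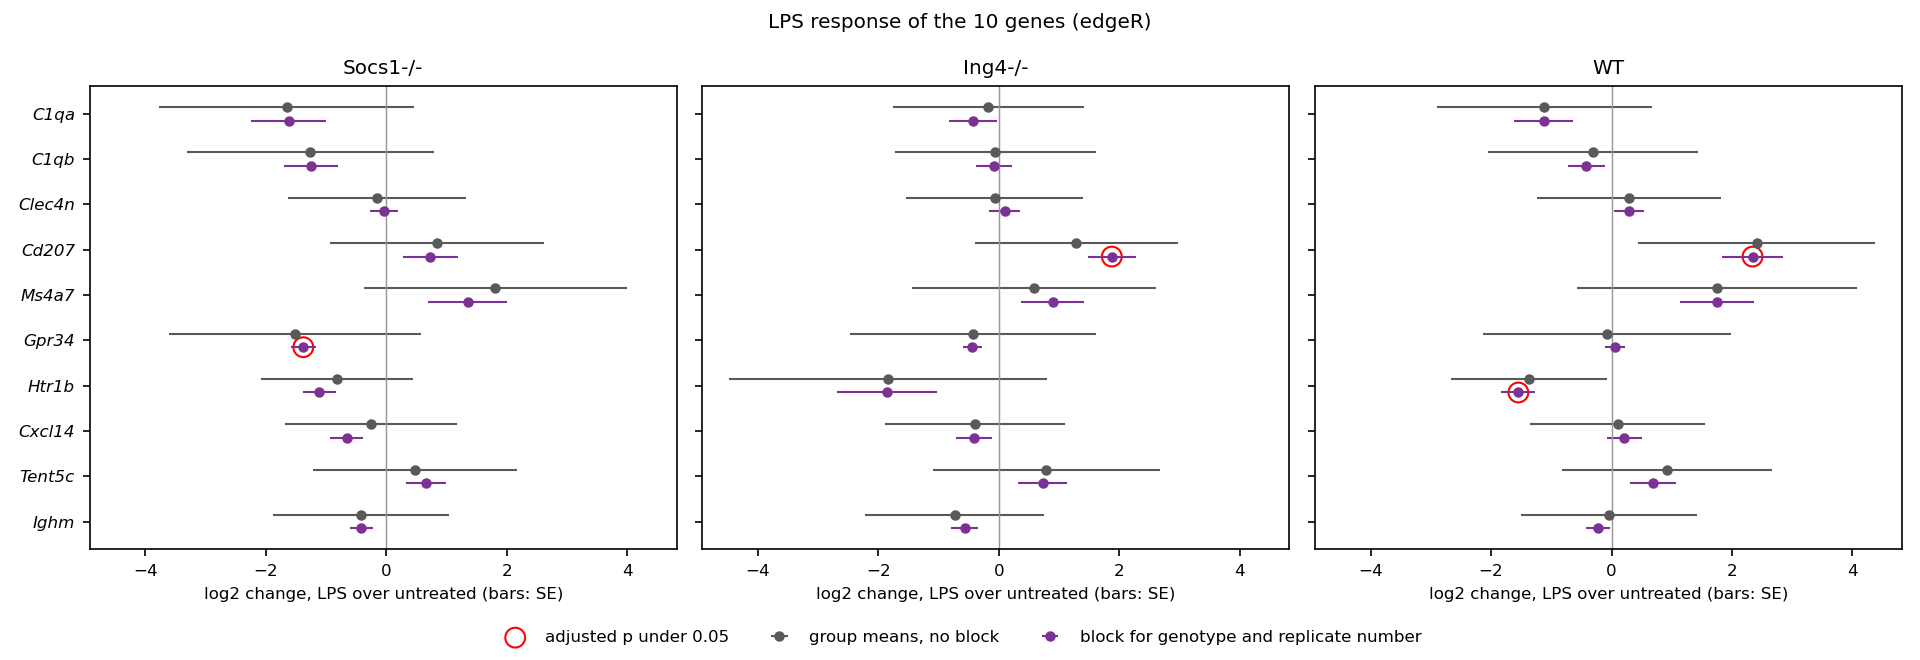
The log2 change after LPS (x axis, bars show the SE) of each gene is plotted for Socs1-/-, Ing4-/- and WT cells from the edgeR fit to group means (grey) and from the fit within genotype and library number (purple). Red rings mark an adjusted p under 0.05, which 4 purple points and no grey point reached: Cd207 in Ing4-/- and WT, Gpr34 in Socs1-/- and Htr1b in WT cells.

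No difference between the LPS response of a knockout and that of WT cells passed for these genes. EdgeR called 0 of the 10 for Socs1-/- and 0 for Ing4-/-, with 0% of all genes called in either comparison. Of the 20 values 0 had an unadjusted edgeR p under 0.05, against 102 and 53 over all genes. DESeq2 and limma-voom also called 0 of the 20, and 0 over all genes. Within library numbers 0 were called and Gpr34 in Socs1-/- cells, with a log2 difference of -1.44 (SE 0.267), was the 1 gene of the 10 with an unadjusted edgeR p under 0.05. Over all genes that fit gave 360 in Socs1-/- and 199 in Ing4-/- cells. Responses called in 1 genotype and not in another were thus not shown to differ. The spread in both fits comes from the library values by which the genes were chosen, so these counts are a description.

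No difference between knockout and WT cells passed edgeR's test for these genes. It called 0 of the 10 in LPS-treated and untreated Socs1-/- cells, against 0.0626% and 0.0470% of all genes, and 0 in LPS-treated and untreated Ing4-/- cells, against 0.102% and 0.141%. The spread in this test includes the gap between libraries by which the genes were chosen, so these counts of 0 are no independent result. Of the 40 values 3 had an unadjusted edgeR p under 0.05, Htr1b in LPS-treated and untreated and Cd207 in untreated Ing4-/- cells. Over all 12771 genes, 1356 and 658 had one in LPS-treated and untreated Socs1-/- cells, and 906 and 670 in Ing4-/- cells. By limma-voom 0 were called and by DESeq2 2, both of them Htr1b. Over all genes limma-voom called 24 and 8 in LPS-treated and untreated Socs1-/- cells and 32 and 33 in Ing4-/- cells. DESeq2 called 231 and 89 in Socs1-/- and 136 and 125 in Ing4-/- cells over all genes. Htr1b had 3 counts in LPS-treated Ing4-/- cells, over both libraries, against 365 in WT cells, a ratio of 0.00806 with an exact binomial 95% interval of 0.00165 to 0.0237. Untreated it had 13 counts against 1143, a ratio of 0.0114. The fitted log2 changes, which at such counts depend on the prior count, were -6.88 (SE 2.04, edgeR adjusted p = 0.456) and -6.41 (SE 1.73, edgeR adjusted p = 0.431), and those of DESeq2 -7.00 (DESeq2 adjusted p = 0.00387) and -6.45 (DESeq2 adjusted p = 0.00260).

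The Ing4-/- and WT libraries did not overlap for 3 of the 10 genes after LPS (Htr1b, Gpr34 and Cd207), against 37.6% of all tested genes, and for 2 untreated (Htr1b and Gpr34), against 38.4%. The Socs1-/- and WT libraries overlapped for all 10 genes, while they did not for 34.8% of all tested genes after LPS and 39.4% untreated. Wide gaps between the libraries of a genotype, by which the genes were chosen, make groups overlap more readily, so these counts are a description. Both Ing4-/- libraries lay below both WT libraries for Htr1b, and above them for Gpr34 in each treatment and for Cd207 after LPS, where Cd207 had 9.03 and 139 CPM in Ing4-/- and 7.74 and 2.03 CPM in WT libraries. The log2 changes of Gpr34 were 2.37 (SE 2.15, edgeR adjusted p = 0.916) and 2.73 (SE 2.17, edgeR adjusted p = 1). Cd207 and Ms4a7 had the largest positive values in Ing4-/- cells, at 3.92 and 3.38 on the log2 scale after LPS and 5.05 and 4.55 untreated, with edgeR adjusted p of 0.750 or higher. Without the second Ing4-/- library of the treatment compared, Cd207 was at 0.89 after LPS and 0.37 untreated and Ms4a7 at -0.66 and -0.57. C1qa, at 2.54 after LPS with all libraries, was then at -2.26. The median over the 10 genes was 1.49 after LPS and 1.48 untreated in Ing4-/- cells and 0.49 and 1.27 in Socs1-/- cells, against 0.01 to 0.02 for all genes. Its sign also rested on single libraries: in Ing4-/- cells it was -1.15 after LPS and -1.001 untreated without the second Ing4-/- library of the treatment compared. In Socs1-/- cells after LPS it was -1.01 or -0.77 without the first or second Socs1-/- library and -0.28 without the second WT library, and untreated it was -0.25 or -0.53 without the first or second Socs1-/- library. In Socs1-/- cells the values of the 10 genes lay between -2.35 and 1.71 over both treatments. The 5 deposited tables of the authors, which list genes that passed in their comparisons, held none of the 10.

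**Figure D4:**
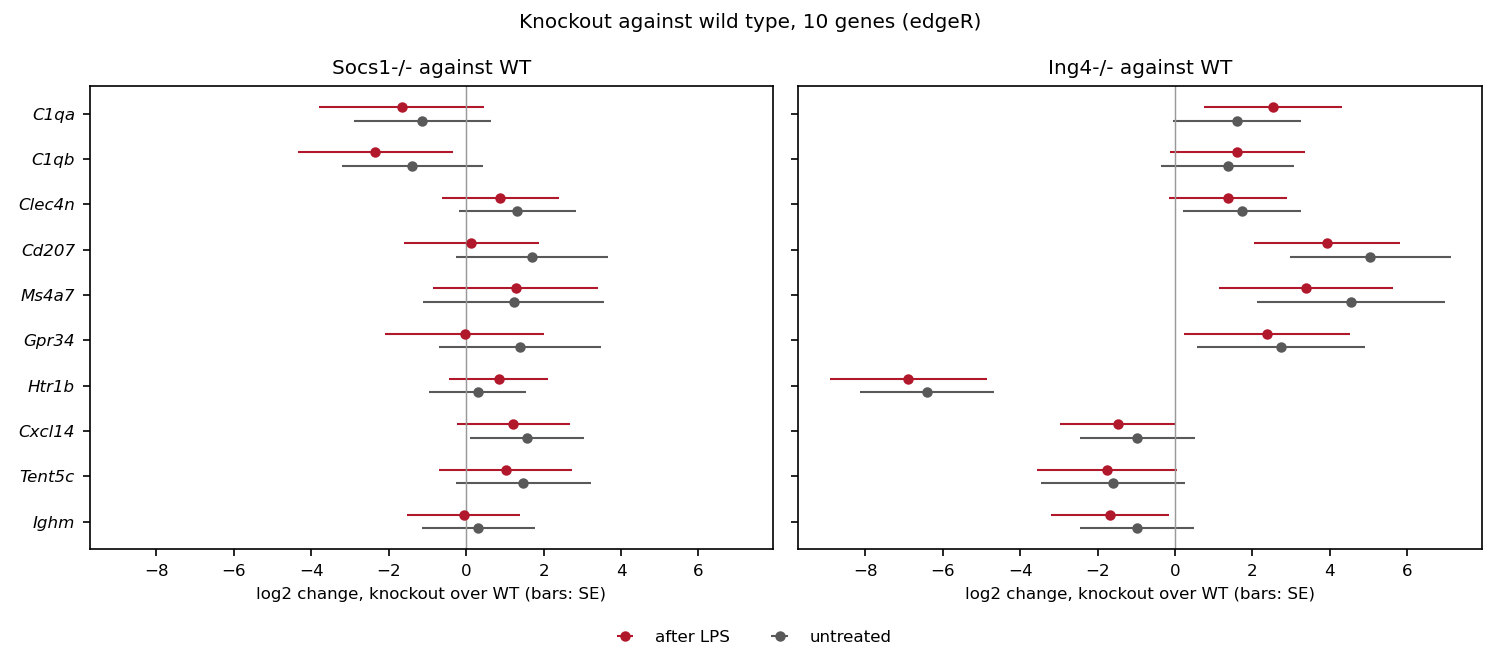
The edgeR log2 change of each gene in Socs1-/- (left) and Ing4-/- cells (right) against WT cells is plotted with its SE, after LPS (red) and untreated (grey). Htr1b lies at -6.88 and -6.41 in Ing4-/- cells, the other 9 genes lie between -1.75 and 5.05 there, and none passed the adjusted threshold of 0.05.

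Genes related to the 10 by pathway or cell type also differed between libraries. The 11 lists held 196 genes, 114 of them tested; as they were drawn up with earlier results of these data known and without the 10 genes, their counts are a description. At least 2-fold differences in both treatments were found for 29 of the 114 (25.4%) in Socs1-/-, 17 (14.9%) in Ing4-/- and 12 (10.5%) in WT cells, beside the 3.82%, 2.00% and 0.963% of all genes given above. Among 14 tested genes of classical complement, which include C1qc, C3, the central complement component, had 4.44 and 91.6 CPM in the first and second LPS-treated Socs1-/- libraries and 2.47 and 31.5 CPM in the untreated ones. Among 17 genes of the Dectin-2 cluster and Syk-coupled lectins, Clec4a3 and Clec4a1 were higher in the second Socs1-/- library, Clec4a3 with 2.89 and 44.5 CPM after LPS and 5.33 and 51.8 CPM untreated. Of 19 microglia and resident macrophage genes 7 differed in Socs1-/- cells. They included Gas6, a ligand of receptors for dying cells, with 5.34 and 104 CPM after LPS and 6.77 and 208 CPM untreated, and P2ry13, a purine receptor, with 0 and 8.43 CPM after LPS and 0.0434 and 8.26 CPM untreated.

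Of 11 Langerhans and dendritic cell genes 5 differed in Socs1-/-, 2 in Ing4-/- and 2 in WT cells. H2-Aa, H2-Eb1 and H2-Ab1, which encode class II antigen-presenting chains, were higher in the second Socs1-/- library, H2-Aa with 0.0815 and 15.3 CPM after LPS and 0.0434 and 10.7 CPM untreated. Cd74, which encodes the invariant chain of class II, was higher in the second library in Socs1-/- cells, with 147 and 317 CPM after LPS, and in WT cells, with 123 and 281 CPM, but in the first in Ing4-/- cells, with 182 and 62.7 CPM. Of 12 osteoclast genes 4 differed in Socs1-/-, 4 in Ing4-/- and 5 in WT cells. Atp6v0d2, a proton pump subunit, had 32.1 and 1.29 CPM in LPS-treated Socs1-/- libraries, 4.66 and 30.3 CPM in Ing4-/- libraries and 9.35 and 23.9 CPM in WT libraries. Acp5, the tartrate-resistant phosphatase, had 50.4 and 7.53 CPM in Socs1-/- and 9.79 and 96.4 CPM in Ing4-/- libraries after LPS. Nfatc1, the transcription factor of osteoclast differentiation, had 507 and 60.5 CPM in LPS-treated and 483 and 102 CPM in untreated Socs1-/- libraries. The MS4A family (7 tested genes), B cell (3), poly(A) polymerase (12), aminergic receptor (3), lysophospholipid receptor (7) and homeostatic chemokine (9) lists had 0 to 2 such genes in each genotype.

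After LPS, 5 of the 114 list genes (4.39%) were called in Socs1-/- cells, all higher, 13 (11.4%) in Ing4-/- cells, 8 higher and 5 lower, and 6 (5.26%) in WT cells, 5 higher and 1 lower, by edgeR, against 1.98%, 8.02% and 2.89% of all genes. Their median log2 changes were 0.19, 0.22 and 0.27, against 0.01, 0.00 and 0.01 for all genes. Clec4e, the lectin Mincle, and Malt1 and Bcl10, which carry the Syk signal of such lectins, rose in all 3 genotypes; the log2 change of Clec4e was 3.28 in Socs1-/- (SE 0.537, edgeR adjusted p = 0.0186), 4.05 in Ing4-/- and 3.74 in WT cells. C5ar1, the receptor of the complement fragment C5a, rose in Socs1-/- (3.47) and Ing4-/- cells (2.91). S1pr1, a receptor for a lysophospholipid, fell in Ing4-/- (log2 -4.69) and WT cells (-3.71). Within library numbers the counts were 14, 41 and 25 of 114 (12.3%, 36.0% and 21.9%), against 6.02%, 27.2% and 14.2% of all genes. Against WT cells 1 list gene, the chemokine Pf4, was called in each of the 4 knockout comparisons, and it was lower in all, with log2 changes of -4.43 and -5.11 in LPS-treated and untreated Socs1-/- cells and -4.37 and -4.04 in Ing4-/- cells (edgeR adjusted p under 0.05 in each).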

How the data were processed

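The 12 RAW264.7 libraries, 2 in each of 6 groups, hold single reads of 75 bases from poly(A)-selected RNA, prepared with a strand-marking kit, per the labels' protocols. The authors deposited whole-number read counts per Ensembl gene without scaling. HISAT, HTSeq, StringTie, DESeq2 and FastQC are named, without versions or counting settings, per the submitters' processing notes. The authors' tables of changed genes, also deposited, give an adjusted p-value for each gene; they were used only to look up the 10 genes. The labels name the human build GRCh38 and, in the treatment protocol, a human cell line, but the mouse build GRCm38, used here for positions, matches 1278 of the 1345 genes placed in the authors' tables (95.0%). Symbols were found for 54079 of 54232 gene identifiers.

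The 10 genes and all gene lists were chosen with earlier results of these data known. Counts were tested in R 4.3.3 with edgeR 4.0.16 (filterByExpr, TMM scaling, robust quasi-likelihood fit of 6 group means, F-test, Benjamini-Hochberg over 12771 genes, called at an adjusted p of 0.05); SE is the log2 change over the root of F. The fit was tested on simulated data with less spread between libraries than here and no deviation shared by same-numbered libraries. That test therefore does not show how the fit behaves on these data. Depth was 17250815 to 24377950 counts per library; exact binomial 95% intervals cover counting error only. Same-numbered LPS-treated and untreated libraries of a genotype deviated together over genes (r = 0.508 to 0.653 in 3 genotypes), so a block for genotype and replicate number is given beside the LPS results; between genotypes r was -0.138 to 0.193 and the numbers were not taken to pair them. Alternatives were DESeq2 1.42.0, limma-voom (limma 3.58.1), other scalings, filters, folds and prior CPM values, each library left out, and, chosen after seeing the data, the block without the first LPS-treated Socs1-/- library and the untreated pairs alone. Named were the 10 genes, C1qc and the targeted genes. From each list up to 4 called genes per comparison and up to 4 with the largest library difference were eligible. The genes most like each by correlation were named without predicted or clone names. For each genotype, genes were named from the 4 each way with the largest library difference. Those 4 were taken among genes averaging at least 2 CPM in the higher library, without predicted or clone names. Tnf, Ifit1, the marker genes and neighbouring or overlapping genes were added beside the results they bear on.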

Additional observations from a re-analysis of the deposited data

How the results depend on the processing

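The counts of calls among the 10 genes depended on the low-count filter, the tool and the pairing. Without the filter on low counts edgeR called 7 of the 30 LPS values, 24 of the 40 knockout values and 1 of the 20 differences of responses, against 0, 0 and 0. Over all 23947 genes it then called 1462, 2588 and 2080 after LPS in Socs1-/-, Ing4-/- and WT cells. Against WT it called 919 and 429 in LPS-treated and untreated Socs1-/- cells and 539 and 516 in Ing4-/- cells. For the differences it called 64 in Socs1-/- and 26 in Ing4-/- cells. The cause of the rise was not tested. DESeq2 called 2 knockout values, both of Htr1b, beside 136 and 125 genes over all in LPS-treated and untreated Ing4-/- cells. The block for genotype and replicate number gave 4 LPS calls and 0 differences, and 11 LPS calls without the first LPS-treated Socs1-/- library. For knockouts against WT the shared replicate number as a block gave 2 calls, Htr1b in LPS-treated (edgeR adjusted p = 0.0159) and untreated (edgeR adjusted p = 0.0146) Ing4-/- cells. Over all genes that block gave 15 and 24 calls there. RLE and upper-quartile scaling and limma-voom gave 0 calls among the 10 genes in all 3 families. Over all genes, RLE scaling gave 255, 990 and 370 calls after LPS in Socs1-/-, Ing4-/- and WT cells. Upper-quartile scaling gave 256, 1137 and 434. Each comparison with WT gave 6 to 18 calls with RLE, 6 to 19 with upper-quartile scaling and 8 to 33 with limma-voom. With 1 library left out a group keeps a lone library, so calls among the 10 genes there are no measure of stability. For the 11 lists, the 28 calls over all comparisons were 77 with DESeq2, 233 without the filter and 6 to 75 with 1 library left out, namely 75 without the first and 69 without the second LPS-treated Socs1-/- library and 6 to 16 without any other; the 24 calls in the LPS comparisons were 80 with the block for genotype and replicate number and 170 with that block and without the first LPS-treated Socs1-/- library.

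The numbers of genes that differed between the libraries (488 in Socs1-/-, 255 in Ing4-/- and 123 in WT cells) were 1164, 972 and 525 at 1.5-fold and 121, 30 and 7 at 4-fold. With 2 CPM added before the log they were 290, 162 and 49, and with 0.1 CPM they were 728, 440 and 249. The untreated pairs alone gave 757, 511 and 296. The 1 chromosome whose median passed 0.1 (log2) in both treatments became 0 in Ing4-/- cells among genes of at least 5 CPM and 0 in WT cells with RLE scaling.

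Among the 20 member values of at least 2-fold (LPS) or 4-fold (knockout), 1 turned its sign with another tool, Ms4a7 after LPS in Socs1-/- cells (-0.054 by limma-voom). Leaving out 1 library turned 9: in LPS responses C1qa (0.80) and Htr1b (0.59) in WT cells without the first untreated library, Cd207 in Ing4-/- cells (-1.75) without the second LPS-treated library, Ms4a7 in Socs1-/- cells (-4.06) without the second LPS-treated library, and Gpr34 (6.12) and C1qb (0.81) in Socs1-/- cells without the second untreated library. Against WT, C1qa (-2.26) and Ms4a7 (-0.66) after LPS and Ms4a7 untreated (-0.57) turned in Ing4-/- cells without the second library. The ranges over left-out libraries were -3.28 to 0.80 for C1qa and -3.86 to 0.59 for Htr1b in WT, -1.75 to 5.96 for Cd207 in Ing4-/-, -4.06 to 4.25 for Ms4a7, -8.30 to 6.12 for Gpr34 and -4.01 to 0.81 for C1qb in Socs1-/- cells, and, against WT, -2.26 to 4.71 for C1qa, -0.66 to 4.33 for Ms4a7 after LPS and -0.57 to 5.53 untreated. With 2 libraries a group, leaving out 1 leaves a lone sample whose spread is borrowed from the other groups. Depth limits C1qa, C1qb and Htr1b most, which had 1 to 10 counts in several libraries.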

Other observations

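Other genes also differed between the libraries of a genotype. In Socs1-/- cells Pxdn, a peroxidase of the extracellular matrix, had 134 and 5.06 CPM in the first and second library after LPS and 127 and 5.92 CPM untreated, and Angptl2, a secreted angiopoietin-like protein, had 63.7 and 0.281 CPM after LPS and 73.9 and 5.72 CPM untreated. Higher in the second Socs1-/- library were Cyfip2, a regulator of actin assembly, with 3.59 and 205 CPM after LPS and 2.39 and 154 CPM untreated, and Cd300e, an activating myeloid receptor, with 0.489 and 156 CPM after LPS and 0.694 and 25.5 CPM untreated. In Ing4-/- cells the first library was higher for Ifi27l2a, an interferon-induced gene, with 28.2 and 3.82 CPM after LPS and 28.9 and 3.87 CPM untreated. The second was higher for Olr1, a receptor for oxidised lipoprotein, with 16.3 and 187 CPM after LPS and 1.18 and 24.3 CPM untreated. In WT cells the second library was higher for Lst1, a leukocyte membrane protein, with 10.8 and 49.2 CPM after LPS and 6.94 and 31.3 CPM untreated, and for Fcgr4, an activating antibody receptor, with 9.73 and 56.8 CPM after LPS and 2.06 and 10.7 CPM untreated. These genes were picked from the 4 each way in each genotype that ranked highest by this difference, so the values are a description with no test.

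By chromosome, the median difference of the first over the second library was largest on chromosome 11 in Socs1-/- cells, at -0.18 on the log2 scale after LPS and -0.17 untreated over 1072 tested genes. It was -0.22 and -0.17 over 821 genes of at least 5 CPM, and -0.19 and -0.18 with RLE scaling. All other medians over 20 chromosomes and 3 genotypes lay between -0.11 and 0.10.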
